A study of Rattus norvegicus with 5 samples.

Results

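The glutathione S-transferases (Gst), microsomal glutathione transferases (Mgst), UDP-glucuronosyltransferases (Ugt) and sulfotransferases (Sult) were followed over the first hour of insulin in Fao cells, a rat hepatoma line. Members were the non-control spots whose gene name on the array, without the suffix for predicted genes, began with Gst, Mgst, Ugt or Sult. This gave 40 gene names on 55 probes, of 35658 names and 41012 probes in all, namely 15 Gst, 3 Mgst, 11 Ugt and 11 Sult genes. The rule reads names only.

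Cultures grew for 2 days with 10% fetal bovine serum and were then starved 16 h with 10 nM dexamethasone, a synthetic glucocorticoid, in all groups including 0 min. They then received 10 nM insulin for 0, 15, 30, 45 or 60 min, and cRNA made from 700 ng of total RNA was labelled with Cy3 and hybridised to 1 Agilent array per time. No time-matched array without the hormone was used here, so insulin and time in culture cannot be told apart. The line is a single tumour-derived population, and each time is 1 sample label and 1 array, so a single time has no replicate spread and no p-value.

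Conjugating enzymes make lipophilic compounds soluble by joining them to a polar group, and liver cells carry out most of this work in the body. Glutathione transferases add glutathione to electrophiles, glucuronosyltransferases add glucuronic acid from UDP-glucuronate, and sulfotransferases add sulfate from the donor PAPS (3'-phosphoadenosine-5'-phosphosulfate). Their products leave the cell through export pumps, and many of their genes are controlled by the nuclear receptors and by the oxidative stress factor NRF2.

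The 5 arrays held 43379 non-control spots each. Between 22069 and 22819 of these were well above background at 0 to 45 min, against 24489 at 60 min, and the 75th percentile of the signal was 253.6 to 299.9 at 0 to 45 min against 480.3 at 60 min. The 60 min array lay alone on slide 2 and was scanned apart, while the other 4 lay on slide 1 in the order of time, so slide and time cannot be told apart at 60 min. All 9 hepatocyte markers (Alb, Ttr, Apoa1, Apob, Tf, Serpina1, Fgb, Hnf4a and Tat) were well above background on all 5 arrays, with a summed signal of 866 to 962 times the 75th percentile. Of the biliary markers, Krt7, Epcam and Spp1 were not well above background on any array, while Krt19 and Sox9 were on all 5. Of 5 endothelial markers, 4 (Pecam1, Lyve1, Stab2 and Tek) were on none. The remaining marker, Kdr, was well above background on 4 arrays, with a signal of -3.19 at 0 min as log2 over the 75th percentile. On all 5 arrays stood 3 of 5 macrophage markers and 1 of 5 stellate markers, with summed signals of 1.45 to 1.77 and 1.69 to 1.86 times the 75th percentile.

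A level is given throughout as log2 of the signal after division by the array's 75th percentile, and a change as the difference of 2 such levels. Levels of different genes come from different probes and are not set against each other. The error that the scanner software attached to a signal had a median of 0.14 log2 units for the members, which makes 0.20 for a change. Its lowest value was also 0.14 and its highest 0.19. It was thus nearly the same for most members, and acts as a near-constant limit rather than a spread measured for each gene. The spread between spots of probes printed at least 8 times gave an SD of 0.18 to 0.20 for a change. Both cover the array only, not the culture.

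Promoters of the members on which the descriptions below turn most are shown first, as the 250 bases before the RefSeq gene start on GRCr8, 5′ to 3′ along the gene. Sult1a1 is shown because it had the largest difference at 60 min. Gsto1 and Gsto2 are shown because these neighbours had values of opposite sign at 60 min. With normexp background correction, however, both were lower there (-0.20 and -0.34). Their starts lie 10845 bases apart, taking the first of 2 starts that RefSeq gives for Gsto2. The second, at chr1:256673648, is not shown. The 3 Ugt2b genes are shown because 2 of them had negative values at 60 min, while the brighter probe of Ugt2b5 gave 0.18 and its other probe -0.24. Ugt2b10, at -0.47 at 60 min, matched no current symbol by accession and so has no promoter here. In the Ugt2b promoters, capitals mark a run of 31 bases shared by all 3; in the first 3 promoters no letter is capitalised.
Sult1a1, chr1:190706113-190706362, minus strand: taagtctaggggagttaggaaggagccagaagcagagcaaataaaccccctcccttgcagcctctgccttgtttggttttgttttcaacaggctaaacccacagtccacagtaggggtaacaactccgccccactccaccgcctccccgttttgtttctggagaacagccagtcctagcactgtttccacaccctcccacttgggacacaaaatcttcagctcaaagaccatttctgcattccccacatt
Gsto1, chr1:256662281-256662530, plus strand: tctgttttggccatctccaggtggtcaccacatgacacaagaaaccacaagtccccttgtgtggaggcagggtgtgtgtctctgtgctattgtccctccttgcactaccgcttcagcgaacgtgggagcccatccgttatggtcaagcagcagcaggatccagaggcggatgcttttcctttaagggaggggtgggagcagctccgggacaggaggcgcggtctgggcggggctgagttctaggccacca
Gsto2, chr1:256673126-256673375, plus strand: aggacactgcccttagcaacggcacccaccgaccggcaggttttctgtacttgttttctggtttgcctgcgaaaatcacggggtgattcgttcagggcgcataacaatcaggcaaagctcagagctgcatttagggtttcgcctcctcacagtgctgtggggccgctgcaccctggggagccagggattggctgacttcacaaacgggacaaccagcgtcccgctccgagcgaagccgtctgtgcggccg
Ugt2b35 (Ugt2b4 on the array), chr14:21208191-21208440, plus strand: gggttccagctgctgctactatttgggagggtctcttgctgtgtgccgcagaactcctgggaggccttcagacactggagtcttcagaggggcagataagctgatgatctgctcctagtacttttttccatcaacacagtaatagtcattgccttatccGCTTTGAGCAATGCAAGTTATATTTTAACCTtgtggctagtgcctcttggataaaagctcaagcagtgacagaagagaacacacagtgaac
Ugt2b15 (Ugt2b3 on the array), chr14:21122616-21122865, plus strand: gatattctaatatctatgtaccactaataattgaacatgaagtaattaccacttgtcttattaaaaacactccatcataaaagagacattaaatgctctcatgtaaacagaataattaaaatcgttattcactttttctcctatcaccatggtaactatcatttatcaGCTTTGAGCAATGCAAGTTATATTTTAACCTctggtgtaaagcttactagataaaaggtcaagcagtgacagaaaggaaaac
Ugt2b37 (Ugt2b5 on the array), chr14:21171886-21172135, plus strand: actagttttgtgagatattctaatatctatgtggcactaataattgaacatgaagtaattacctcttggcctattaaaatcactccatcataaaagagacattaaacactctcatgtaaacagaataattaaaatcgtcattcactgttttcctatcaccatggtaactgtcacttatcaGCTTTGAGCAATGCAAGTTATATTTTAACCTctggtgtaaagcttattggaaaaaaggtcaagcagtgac
The shared run began 91 bases before the start of Ugt2b35, 82 before that of Ugt2b15 and 70 before that of Ugt2b37. It stood in 5 of 33469 promoters (0.0149%), read on both strands, the other 2 being Ugt2b and an unnamed locus. A run of letters in common is a description of related genes and marks no binding site.

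The motifs named here were searched in the same 250 bases of the 22 members that were well above background on all arrays and had a promoter in the table. The FoxO motif GTAAACA, of the factors that insulin signalling removes from the nucleus, was in 2 of the 22 on either strand, Ugt2b15 and Ugt2b37, against 3.21% of all promoters. It began 148 bases before the start of Ugt2b15 and 135 before that of Ugt2b37. The bases on both sides of it read alike in these 2 related promoters, so the 2 matches are not independent. The antioxidant response element TGACNNNGC, which NRF2 binds, was in 3 (Gstm5, Gstm7 and Gstp1) against 10.1%. The letters GTTAAT, found in sites of HNF1, were in 3 (Ugt1a1, Ugt1a2 and Ugt1a6) against 6.45%, and the AhR core GCGTG was in 4 (Gsta2, Gstm5, Gstp1 and Ugt1a6) against 25.9%. The letters TATAAA, read on the gene strand only, were in 2 (Gstm1 and Gstm5) against 8.06%. None of these letters stood in the windows of Sult1a1, Gsto1 or Gsto2.

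Most of the conjugation genes were measurable in these cells, where less RNA per cell and fewer cells with that RNA cannot be told apart. Of the 40 members, 29 (72.5%) were well above background on all 5 arrays, against 46.8% of all 35658 names. This held for 14 of 15 Gst genes and for Mgst1, Mgst2 and Mgst3. It held for 7 of 11 Ugt genes and for 5 of 11 Sult genes. Sult2a2, a hydroxysteroid sulfotransferase, was well above background on 3 arrays only.

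The 10 members that were not well above background on any array were Gstm6, Sult1c1, Sult1d1, Sult2a1, Sult2b1, Sult4a1, Ugt1a9-ps, Ugt2a1, Ugt2b and Ugt8. Sult2a1 sulfates bile acids and dehydroepiandrosterone in liver, and neither of its 2 probes was above background. Several of the others are known from other tissues, Ugt2a1 from the olfactory epithelium, Ugt8 from myelin-forming cells and Sult4a1 from brain. For these genes no change could be measured.

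**Figure D1:**
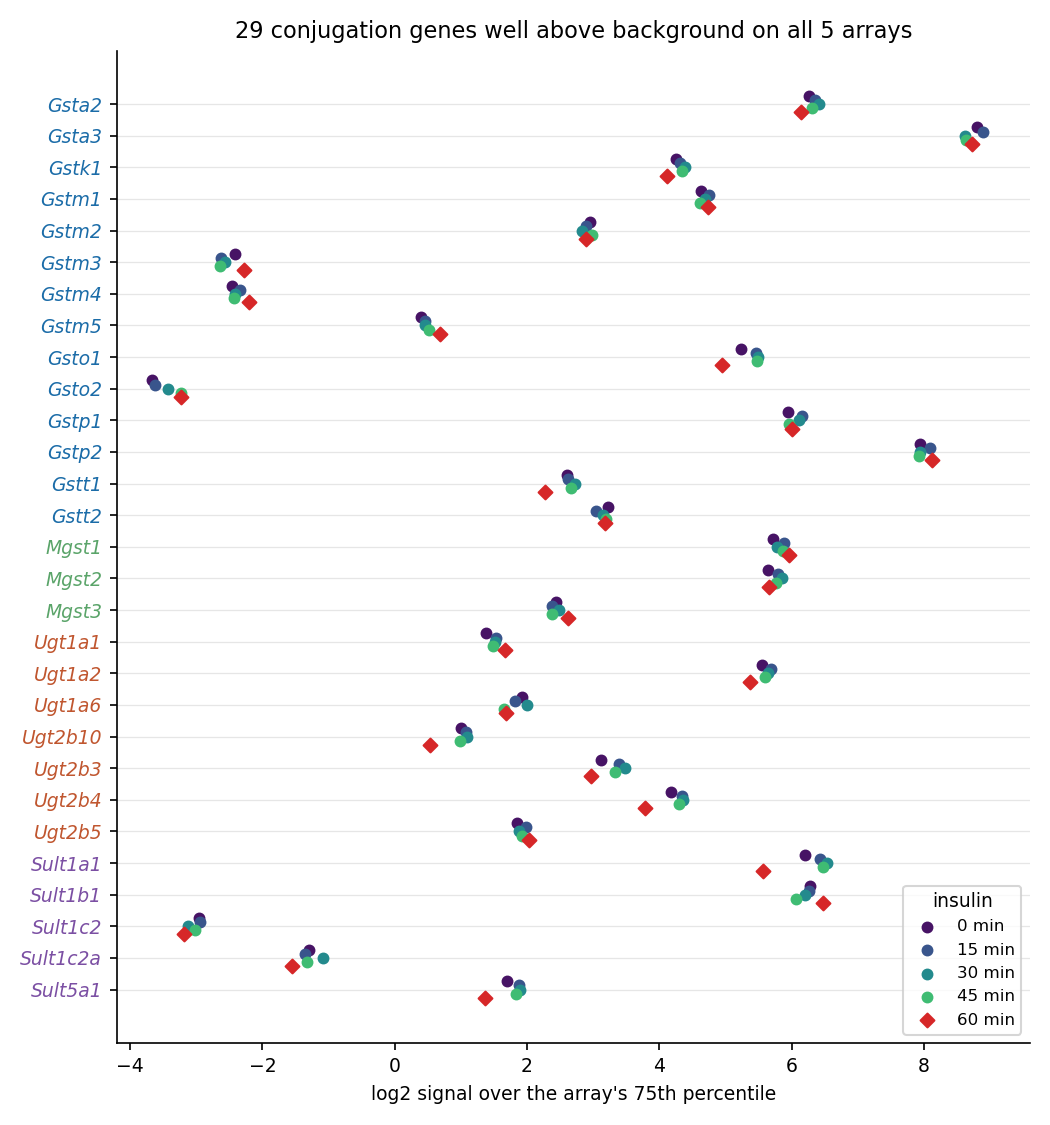
Log2 level (signal over the array's 75th percentile, x axis) of the 29 members well above background on all 5 arrays, 1 row per gene coloured by name group, with circles for 0, 15, 30 and 45 min and a red diamond for 60 min. Rows are not comparable with each other; within a row the 5 points span less than 1 log2 unit, and the widest row is Sult1a1 (0.97).

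No member was 2-fold higher or 2-fold lower than at 0 min at any time. At 15 min, 0 of 30 members passed 2-fold in either direction, while 0.961% of all measured genes were 2-fold higher and 1.41% lower. At 30 min the count was again 0 of 30, beside 1.03% higher and 1.15% lower in all genes. At 45 min it was 0 of 30, beside 1.31% and 1.55%, and at 60 min 0 of 30, beside 1.98% and 1.82%. These shares cover genes well above background on at least 1 of both arrays. Of the 16695 genes well above background on all 5 arrays, 12 were 2-fold higher and 36 lower at 15 min. At 60 min these were 94 and 89, smaller shares than those above. To that set belong 29 of the members. With 30 members, fewer than 1 gene would pass in each single direction at such shares, so the counts of 0 do not set the members apart.

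At 1.5-fold, a lower limit, 1 member passed at 60 min, Sult1a1, which was lower, beside 4.98% of all genes lower and 6.01% higher. No member passed 1.5-fold at 15 min (2.38% of all genes higher and 2.64% lower), at 30 min (2.28% and 2.76%) or at 45 min (3.07% and 3.19%). Beyond 2 times the error of the scanner software lay 0 of 29 members at 15 min (4.59% of all genes), 0 of 29 at 30 min (4.77%) and 0 of 30 at 45 min (5.98%). At 60 min 2 of 30 did, Sult1a1 and Ugt2b10, beside 15.7% of all genes.

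The median change of the members was 0.09 at 15 min, 0.09 at 30 min, 0.03 at 45 min and -0.05 at 60 min. The same over all measured genes was 0.03, 0.02, 0.02 and 0.02. At 15 min 22 of 29 members lay above their 0 min level and at 30 min 23 of 29, beside 57.9% and 54.9% of all genes. At 45 min 18 of 30 did and at 60 min 14 of 30, beside 54.8% and 51.9%. The members' changes had an SD of 0.12, 0.14, 0.15 and 0.26 in order of time, against 0.23, 0.24, 0.25 and 0.34 over all genes. Over all genes this SD was smaller at higher levels, at 15 min 0.28 below a level of -2 and 0.14 above 4. Of the 29 members well above background on all 5 arrays, 13 had a mean level above 4, beside 2074 of 16695 genes. The SDs of members and of all genes are thus not matched for level.

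**Figure D2:**
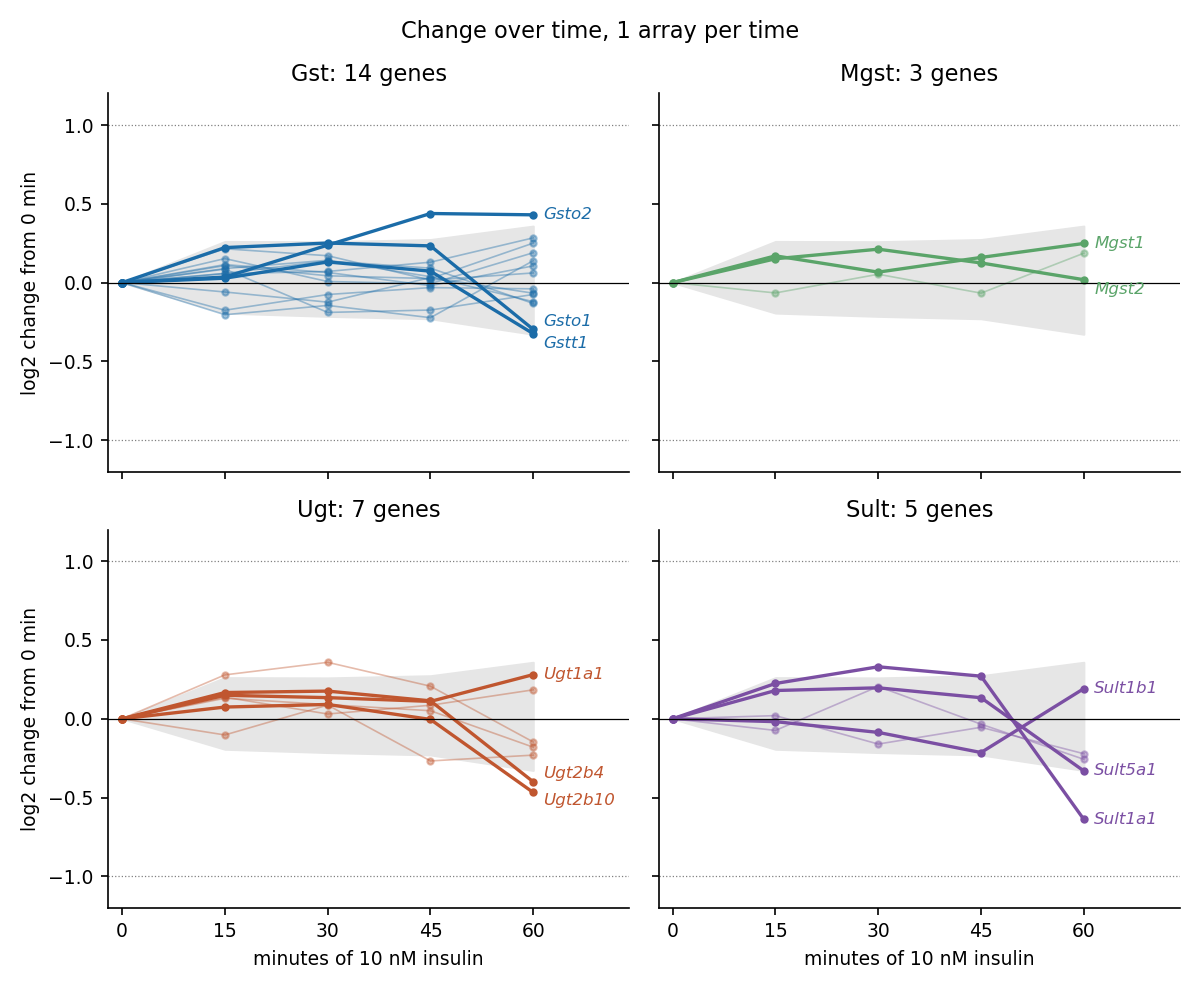
Log2 change from 0 min (y axis) against minutes of 10 nM insulin (x axis), 1 line per gene and 1 panel per name group, with named genes drawn heavier; the grey band is the median of all measured genes plus and minus 1 SD, and dotted lines mark 2-fold. All lines stay inside 2-fold, and Sult1a1 leaves the band furthest at 60 min (-0.64).

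Among the sulfotransferases, Sult1a1 had the widest range of any member. It encodes the main phenol sulfotransferase of liver, and its 1 probe lies at chr1:185829753-185829812 (rn4, minus strand). Its level was 6.20 at 0 min, 6.42 at 15 min, 6.53 at 30 min, 6.47 at 45 min and 5.56 at 60 min. The 60 min array was thus the lowest, while the 3 arrays before it were all above 0 min. The change at 60 min was -0.64 ± 0.20 (error of the scanner software), or 1.56-fold lower, and 2.86% of all genes had a change as low or lower. From 45 to 60 min the difference was -0.91, or 1.88-fold lower, beside 4.97% of all genes that were at least 1.5-fold lower over that step. No member was 2-fold higher or lower over that step (1.36% and 1.33% of all genes), and none was 1.5-fold higher (4.94%). Among the 2074 genes with a mean level above 4, 0.627% were as low or lower at 60 min.

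Sult1b1, which sulfates thyroid hormones, had the opposite order of its last arrays. Its level was 6.28, 6.27, 6.20, 6.07 and 6.48 in order of time, so that 45 min was the lowest array and 60 min the highest. The change at 60 min was 0.19, and its other probe gave 0.23.

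Sult5a1, singled out after its values were seen, stood at 1.70, 1.88, 1.90, 1.83 and 1.37. It was above 0 min on the 3 middle arrays and lowest at 60 min, with a change of -0.33. Sult1c2, a cytosolic sulfotransferase, stood at -2.96, -2.94, -3.12, -3.01 and -3.18, a change of -0.22 at 60 min. Its other probe was well above background on 2 arrays only. Sult1c2a stood at -1.29, -1.36, -1.08, -1.32 and -1.54, and its 2 probes gave -0.26 and 0.14 at 60 min. The Sult1c genes are close relatives that neighbour each other, as are the Sult2a genes, and probes within each may share signal, so both sets are uncertain.

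The Ugt2b enzymes act on steroids and bile acids, and their genes lie together on chromosome 14. Of the glucuronosyltransferases, Ugt2b10 and Ugt2b4 had the lowest values at 60 min on the brightest probe. Ugt2b10, with its probe at chr14:22743224-22743283 (rn4, plus strand), stood at 0.998, 1.07, 1.09, 0.99 and 0.53. Only the 60 min array departed, with a change of -0.47 ± 0.20, or 1.38-fold lower. Ugt2b4, today Ugt2b35 and singled out after its values were seen, stood at 4.18, 4.35, 4.36, 4.30 and 3.78, a change of -0.40. Ugt2b3, today Ugt2b15, stood at 3.12, 3.40, 3.48, 3.33 and 2.97. Its changes at 15 min (0.28) and 30 min (0.36) were the highest of any member, and at 60 min it was at -0.15.

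The Ugt2b5 gene, today Ugt2b37, carries the same run of bases in its promoter as those for Ugt2b3 and Ugt2b4 but did not show their order of arrays. Its brighter probe stood at 1.85, 1.98, 1.88, 1.93 and 2.03, highest at 60 min with a change of 0.18. The other probe of the same gene gave -0.24 there. The Ugt2b genes are similar in sequence, so these probes may share signal and the split between them is uncertain.

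The Ugt1a genes lie together on chromosome 9 and share their last exons, each with a first exon of its own. Ugt1a1, whose enzyme clears bilirubin, stood at 1.38, 1.53, 1.52, 1.49 and 1.66, lowest at 0 min and highest at 60 min, with a change of 0.28. Ugt1a6, which acts on small phenols, stood at 1.92, 1.82, 2.01, 1.65 and 1.69, with changes of -0.27 at 45 min and -0.23 at 60 min. Ugt1a2 stood at 5.55, 5.68, 5.64, 5.60 and 5.37, and its 2 probes gave -0.18 and -0.49 at 60 min. Both lie downstream of the Ugt1a1 probe on the plus strand and may report the exons shared by all Ugt1a genes, so these values are not of Ugt1a2 alone. On the brighter probe each of the 3 values lay within 2 times its error.

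Among the soluble glutathione transferases, both omega-class enzymes reduce dehydroascorbate and methylated arsenic. Gsto1, singled out after its values were seen and probed at chr1:253231589-253231648 (rn4, plus strand), stood at 5.24, 5.46, 5.49, 5.47 and 4.94. It was above 0 min on the 3 middle arrays and lowest at 60 min, at -0.30. Gsto2 stood at -3.66, -3.62, -3.42, -3.22 and -3.23, so that the 45 and 60 min arrays were the high ones, at 0.44 and 0.43. Its probe is near the lower end of the measurable range, with an error of 0.25 for the change at 60 min, and normexp background correction turned that change to -0.34.

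Gstt1, of the theta class that acts on small halogenated compounds, stood at 2.60, 2.63, 2.73, 2.67 and 2.27, a change of -0.32 at 60 min. Gstt2 stood between 3.05 and 3.22 on all arrays. The alpha class, abundant in liver and active on lipid peroxidation products, differed little. Gsta2 stood at 6.27, 6.36, 6.41, 6.31 and 6.15, and Gsta3 (today Gsta1) at 8.81, 8.89, 8.62, 8.63 and 8.73. Their changes at 60 min were -0.12 and -0.08, both within the error.

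The mu-class genes lie together on chromosome 2, where the array places all 6 Gstm names. Gstm1 stood at 4.63, 4.75, 4.70, 4.61 and 4.74 and Gstm2 at 2.96, 2.90, 2.83, 2.99 and 2.89, so no array departed from 0 min beyond the error. Gstm5 stood at 0.40, 0.45, 0.47, 0.52 and 0.68, each array a little above the one before, with a change of 0.28 at 60 min. The other probes of that name lie on the opposite strand and are not used for the gene. Gstm4 (today Gstm3) and Gstm3 (today Gstm7) were at 0.25 and 0.14, both -0.03 with normexp background correction. These genes are near copies of each other, and the values of single members are uncertain.

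Gstp1, the pi-class enzyme known as a marker of preneoplastic foci in rat liver, stood at 5.95, 6.16, 6.12, 5.96 and 6.01. It was highest at 15 and 30 min, at 0.21 and 0.17. Gstp2, a near-identical neighbour, stood at 7.93, 8.09, 7.94, 7.93 and 8.12. Gstk1, of the kappa class found in mitochondria and peroxisomes, ranged from 4.12 at 60 min to 4.39 at 30 min.

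The microsomal enzymes sit in membranes, where Mgst1 also reduces lipid hydroperoxides. Mgst1 stood at 5.72, 5.89, 5.78, 5.88 and 5.97, lowest at 0 min and highest at 60 min, with a change of 0.25. Mgst2 stood at 5.64, 5.79, 5.85, 5.76 and 5.66, and its high array was 30 min, at 0.21. Mgst3 stood at 2.44, 2.37, 2.49, 2.37 and 2.62, and its 2 probes gave 0.19 and -0.15 at 60 min.

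**Figure D3:**
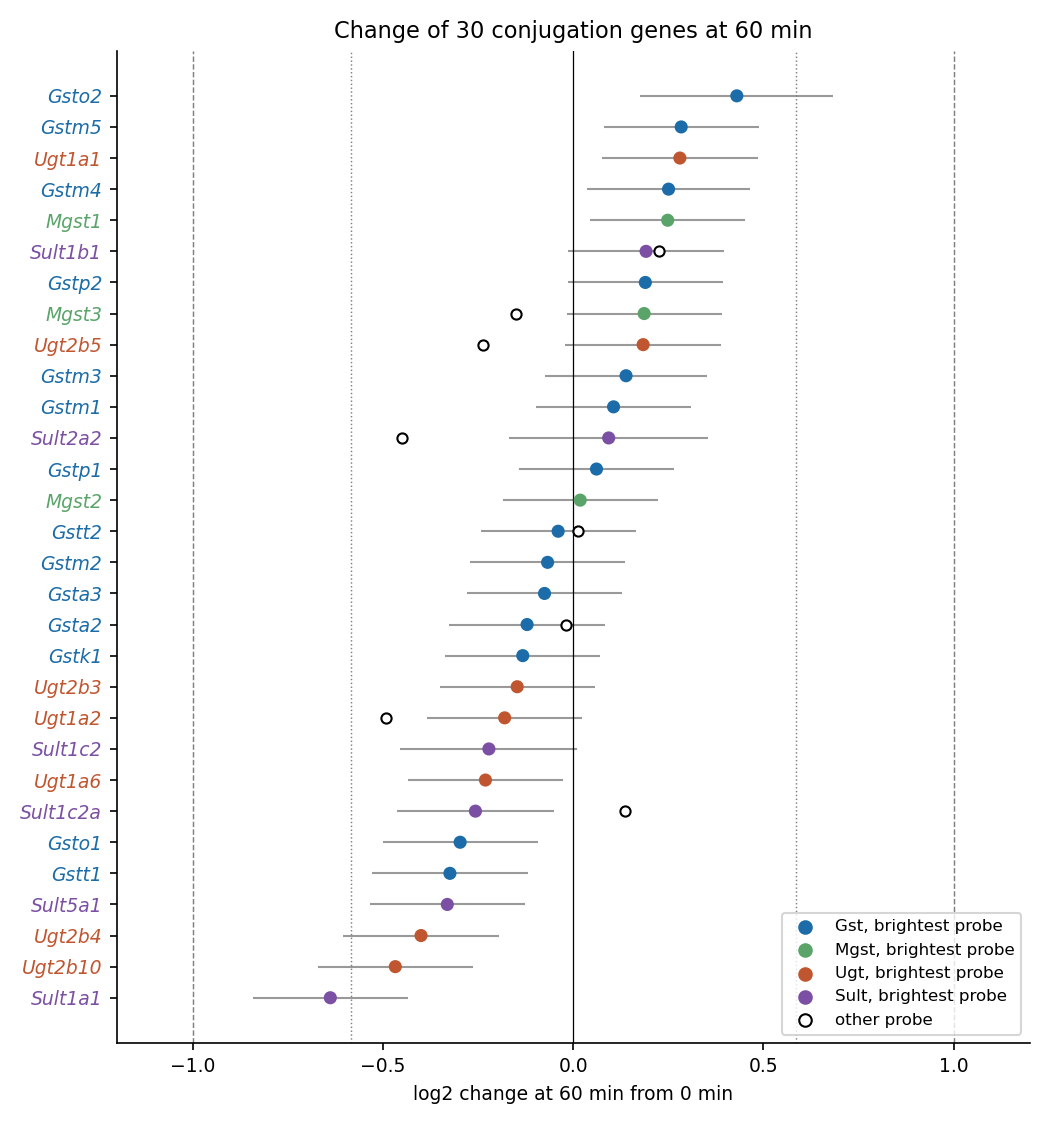
Log2 change at 60 min from 0 min (x axis) of the 30 members measured on both arrays, sorted and coloured by name group, with the error of the scanner software as bars and open circles for other probes of the same gene on the same strand; dotted lines mark 1.5-fold and dashed lines 2-fold. Sult1a1 (-0.64) is the only gene past 1.5-fold, and Gsto2 (0.43, or -0.34 with normexp background correction) is the highest.

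Probes of one gene gave a further measure of error. At 60 min 8 members had a second measured probe on the same strand, a limit set after the values were seen, and the absolute difference between both changes had a median of 0.32, against 0.23 for 2622 genes of the whole series. In 5 of the 8 the signs were opposite (Gstt2, Mgst3, Sult1c2a, Sult2a2 and Ugt2b5), beside 42.2% of the 2622. The largest difference was 0.54, in Sult2a2. Sult1a1, Ugt2b10, Ugt2b4, Gsto1, Gsto2 and Gstt1 each had 1 probe and no such check.

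Several members were above their 0 min level on the middle arrays and below it on the last. The 60 min array was the lowest of 5 for 12 of 29 members, beside 34.2% of all genes well above background on all arrays. By name group these were 4 of 14 Gst, 0 of 3 Mgst, 4 of 7 Ugt and 4 of 5 Sult genes. The same array was the highest of 5 for 9 of 29 members, beside 5768 of 16695 genes. A pattern described after the values were seen, with 15, 30 and 45 min above 0 min and 60 min lowest, held for 9 of 29 (Gsta2, Gstk1, Gsto1, Gstt1, Sult1a1, Sult5a1, Ugt1a2, Ugt2b3 and Ugt2b4), beside 15.2% of all genes. Averaged over 15 to 45 min, 11 of 29 were above 0 min and then below it at 60 min, beside 25.4% of all genes. The 60 min array is also the one on its own slide with the higher 75th percentile, and the part of the slide in this pattern was not tested.

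**Figure D4:**
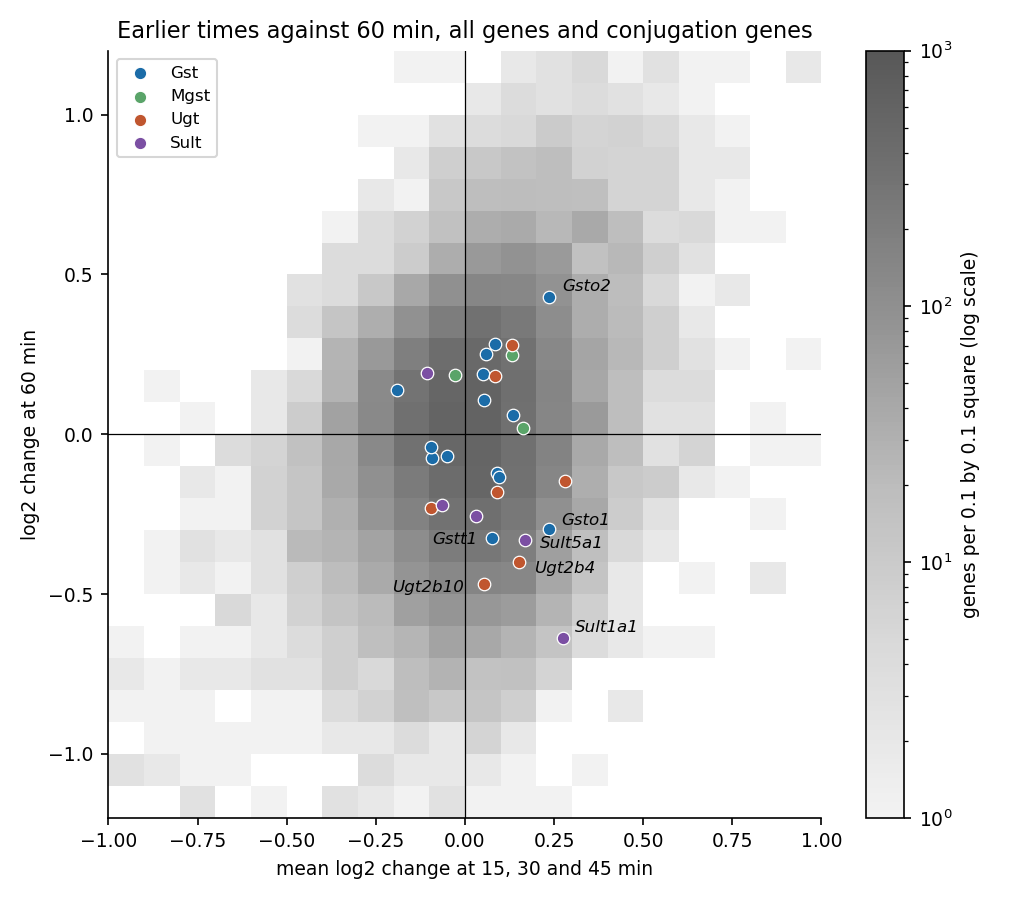
Mean log2 change at 15, 30 and 45 min (x axis) against log2 change at 60 min (y axis), with grey squares for the number of all genes per 0.1 by 0.1 square (log scale) and coloured points for the 29 members. In the lower right field lie 11 of the 29, with Sult1a1 furthest from the origin at -0.64 on the y axis.

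A linear trend over the 5 arrays was fitted with limma, the only fit here with residual degrees of freedom, 3 of them. With Benjamini-Hochberg adjustment over 20499 genes at 5%, 0 of 30 members had a trend in either direction, and the same fit called 0% of all genes. At an unadjusted p under 0.05 it gave 1 member higher with time and none lower, beside 5.13% and 3.46% of all genes. That member was Gsto2, with a slope of 0.51 ± 0.13 (SE) log2 units per hour in limma, and an adjusted p of 0.494 by limma with Benjamini-Hochberg adjustment. Next were Gstm5 with 0.26 ± 0.12 and a limma adjusted p of 0.574, and Ugt2b10 with -0.41 ± 0.21 and a limma adjusted p of 0.594. Sult1a1, whose values turned between 45 and 60 min, had a limma adjusted p of 0.701.

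The array lists 6 genes of the same enzyme families under other names, which are not among the 40, and 5 of them were well above background on all arrays. Ugt2b1, named Udpgtr2 on the array, stood at 3.49, 3.36, 3.40, 3.50 and 3.76. Gstm4 in today's naming, listed as MGC108896, was at -0.30 at 45 min and 0.45 at 60 min. At 60 min Ugt2b7 (LOC286989) was at 0.30, Sult2a6 (Smp2a) at 0.11 and Gsta3 in today's naming (Yc2) at -0.08. Sult1e1, the estrogen sulfotransferase, was not well above background on any array.

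Genes around conjugation, among them those that supply and regulate it, were read from 7 lists. At 60 min the lists had 14, 6, 7, 13, 13, 7 and 6 measured genes, in the order given below. Some genes, such as Gclc and Abcc4, are counted again in another list. At 15, 30, 45 and 60 min 0 of these genes passed 2-fold. Beside this, 0.961%, 1.03%, 1.31% and 1.98% of all genes were higher and 1.41%, 1.15%, 1.55% and 1.82% lower. With so few genes, the counts of 0 do not set the lists apart. For glutathione synthesis and recycling the median change at 60 min was 0.11 over 13 genes measured on both arrays. Chac1, which degrades glutathione, was at -0.67 on both probes, and Gpx1, a glutathione peroxidase, at 0.39 and on its other probe at 0.09. The list around UDP-glucuronate had a median of 0.05 over 6 genes (Ugp2, Ugdh, Slc35d1, Slc35a1, Gusb and Gys2). These are not all genes of UDP-glucuronate supply, so the median is not a value for supply alone. Its largest changes were in Slc35d1, which carries UDP-glucuronate into the endoplasmic reticulum, at 0.44, and in Slc35a1, at 0.20. For PAPS supply and sulfate handling the median was 0.02 over 7 genes, with the PAPS carrier Slc35b2 at 0.40 and the sulfate carrier Slc26a1 at -0.24.

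For NRF2 and its targets the median at 60 min was 0.15 over 13 genes, and 2 of them were at least 1.5-fold higher, beside 6.01% of all genes. These were Srxn1, which repairs peroxiredoxins, at 0.88, and Maff, a small partner protein of NRF2, at 0.67. The regulators of conjugation genes had a median of -0.15 over 13 genes, with Nr1i3 (the receptor CAR) at -0.47 and Nr1h3 (the receptor LXR alpha) at -0.44. Nr1i3 is near the lower end of the measurable range, with a level of -3.23 at 0 min and -3.71 at 60 min. Its other probe gave -0.57. Ahr, the receptor for dioxin-like compounds, was not well above background on any array. The efflux pumps had a median of 0.00 over 7 genes, with Abcb1a at -0.20 and Abcc2, which exports conjugates into bile, at 0.16. Other conjugating enzymes had a median of 0.00 over 6 genes, with the N-acetyltransferase Nat2 at 0.24 and As3mt, which methylates arsenic, at -0.11.

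**Figure D5:**
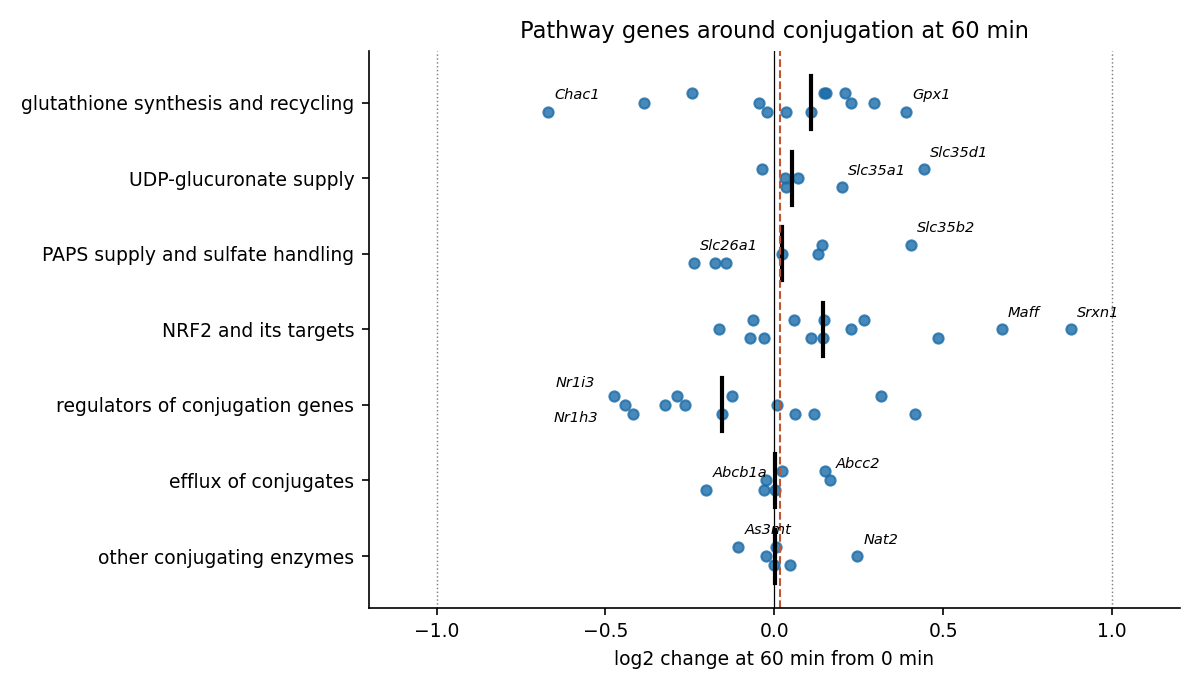
Log2 change at 60 min from 0 min (x axis) of the genes in 7 lists around conjugation (rows), 1 point per gene measured on both arrays, a black bar for the list's median and a dashed line for the median of all genes (0.02); dotted lines mark 2-fold. No point lies past 2-fold, and Srxn1 (0.88) and Chac1 (-0.67) are the outermost.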

How the data were processed

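The labels' time put each sample in its group, with 1 array per time. Spot intensity, per the file headers, comes from Agilent Feature Extraction 9.5.3.1 after background subtraction, and the deposited flags for outliers and for spots well above background were used as given. Probes carry rn4 coordinates, per the file headers; with no rn4 annotation at hand, none was assigned to an exon or untranslated region. For 19777 probes the authors also deposited log2 values in a series matrix, made by a step not given in the sources used here.

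Control and outlier spots were left out, signals were divided by the array's 75th percentile over non-control spots, set to at least the lowest signal well above background, and log2 was taken. A gene's brightest probe stood for it. Changes used genes well above background on at least 1 of both arrays compared. Trends used limma 3.58.1 in R 4.3.3; the fit was tested on simulated data. Current symbols (40 of 55 member probes) and promoters came from RefSeq tables of GRCr8 by accession. Members, lists and the named genes were chosen with earlier results of these data known. Named genes were members past 2-fold on both arrays, or at 2 or more times by a bound; per name group the 3 largest mean changes over 30 to 60 min among those well above background on all 5 arrays; the 5 smallest trend p-values; genes whose probes differed by over 1 log2 unit; and 11 chosen whatever their change. Of each pathway list, the 2 largest changes at 60 min were named. Alternatives tried were the fold limit, quantile scaling, normexp background, filters on dim probes, probe averaging, the series matrix, other reference arrays and leaving out each array. 1 gene of the lists is not reported here.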

Additional observations from a re-analysis of the deposited data

How the results depend on the processing

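No paired analysis was possible because the labels carry no replicate numbers and each time has 1 array. No alternative gave a member a trend at 5%. The 1.5-fold limit gave 1 member lower at 60 min. Averaging a gene's detected probes gave 1 member 2-fold higher at 15 min, through the dimmer Sult1c2 probe. Normexp background gave 2 members 2-fold higher at 15 min and a median of -0.49 there; the 15 min array has 5 spots more than 1000 below their local background, and refitted without them, a choice made after the data were seen, normexp gave 0 and 0.09. The other counts and medians stayed within their limits under every alternative run. For single genes, 45 of 148 values moved by more than the spread between spots with normexp, 9 of 118 with the refit, 7 of 31 on another probe and 0 with quantile scaling or the series matrix. Sult1a1 at 60 min lay between -0.67 and -0.61. At 60 min Gsto2, Gstm3, Gstm4, Sult2a2 and Gsta3 (-0.08 to 0.05) changed sign with normexp, and Gstp1 and Mgst2, both near 0, with quantile scaling.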
